A study of Mus musculus with 12 samples.

Results

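The CXC chemokines described here are 10 ligands, namely Cxcl1, Cxcl2, Cxcl3, Cxcl5, Ppbp, Pf4, Cxcl12, Cxcl13, Cxcl14 and Cxcl16. They were chosen by gene symbol from the 18996 genes of the deposited count table, with earlier results of the same comparisons known. Their levels, fold changes and calls in the 3 groups are therefore given as a description with no test, and p-values are given for other genes of the pathway only. All 10 passed the filter on low counts.

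RNA was sequenced from 12 young BALB/c mice, 4 in each of the groups No operation, SHAM and Laminectomy. No operation mice gave untouched soft tissue from beside the spine. In SHAM mice that soft tissue was cut away and the laminae were left in place. In Laminectomy mice the laminae and spinous processes were removed as well, which laid the dura bare. The tissue of both surgical groups, taken a week after the operation, held scar as well as soft tissue, and both groups were compared with the same 4 No operation mice. The labels name no transgene or drug, and each group was sampled at a fixed time.

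CXC chemokines are small secreted proteins that guide leukocytes through receptors on their surface. Members with a Glu-Leu-Arg stretch near their start (ELR ligands), here Cxcl1, Cxcl2, Cxcl3, Cxcl5 and Ppbp, act on Cxcr2 and draw neutrophils into injured tissue. Pf4 is stored in platelet granules, Cxcl12 is made by stromal cells and holds marrow cells and lymphocytes through Cxcr4, Cxcl13 guides B cells through Cxcr5, Cxcl14 is made by epithelia and fibroblasts in healthy tissue, and Cxcl16 is a membrane-bound ligand of Cxcr6.

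In GRCm38, 6 members lay side by side on chromosome 5, within 146.6 kb between positions 90759360 and 90905938, in the order Cxcl5, Ppbp, Pf4, Cxcl3, Cxcl1 and Cxcl2, all on the plus strand. RefSeq lists 7 protein-coding genes there, of which the other is Cxcl15. Cxcl13 lay apart from them on the same chromosome (chr5:95956951-95961068), Cxcl12 on chr6:117168535-117181367, Cxcl14 on the minus strand of chr13:56288643-56296551 and Cxcl16 on the minus strand of chr11:70453983-70459984. Exons of Cxcl16 shared 552 bases, 18.3% of its exon length, with Zmynd15 on the opposite strand, so that its count is uncertain where counting ignored strand.

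RefSeq promoter sequences (GRCm38.p6, 250 bases before to 50 after the start) were at hand for 8 of the 10 members, all but Cxcl5 and Cxcl16. They were searched on both strands for an NF-kB-like motif (GGANTTTCC, or GGAAANTCC in reverse), an AP-1-like motif (TGANTCA), a C/EBP-like motif (TTGCNNAA, or TTNNGCAA in reverse) and a TATA motif (TATAAA, or TTTATA in reverse). The NF-kB-like motif stood in 3 of the 8, and in 1.25% of 32851 mouse promoters. It started 70 bases before the RefSeq start of Cxcl1, 96 before that of Cxcl2 and 72 before that of Cxcl3. The GENCODE starts of Cxcl1 and Cxcl2 lie upstream of their RefSeq starts and so nearer to the motif. Cxcl1, Cxcl2 and Cxcl3 are shown because they carried the same 9 letters and were all higher after surgery, and their neighbours Ppbp and Pf4 because they lay between them and Cxcl5 and held none. The stretches are chr5:90768428-90768517 (Ppbp), chr5:90772345-90772434 (Pf4), chr5:90786009-90786100 (Cxcl3), chr5:90891155-90891240 (Cxcl1) and chr5:90903783-90903870 (Cxcl2), all on the plus strand, with the NF-kB-like and TATA motifs in capitals.
Ppbp: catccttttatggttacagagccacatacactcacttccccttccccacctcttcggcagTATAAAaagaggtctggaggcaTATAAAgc
Pf4: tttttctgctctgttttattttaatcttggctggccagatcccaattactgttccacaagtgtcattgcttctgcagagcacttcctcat
Cxcl3: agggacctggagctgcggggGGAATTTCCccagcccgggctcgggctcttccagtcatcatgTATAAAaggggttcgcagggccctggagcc
Cxcl1: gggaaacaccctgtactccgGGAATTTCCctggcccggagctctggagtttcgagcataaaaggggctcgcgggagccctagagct
Cxcl2: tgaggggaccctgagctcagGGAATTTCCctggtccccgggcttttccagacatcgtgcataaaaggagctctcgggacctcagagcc
A TATA motif stood in Cxcl3, Ppbp and Cxcl13 and in 13.6% of all promoters. An AP-1-like motif was found in Ppbp alone (7.81% of all promoters), and a C/EBP-like motif in Pf4 and Cxcl13 (10.8% of all promoters). These matches describe letters only.

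Each mouse had between 16802989 and 18077868 counts, and levels are given as CPM, read counts divided by the TMM-scaled library size. Marker lists show what the tissue held. The summed CPM of 6 skeletal muscle genes ran from 71870 to 101800 in No operation mice, from 1830 to 7236 in SHAM mice and from 2526 to 10270 in Laminectomy mice. Some libraries stood apart within their group. No operation mice 2 and 3 had high levels of marrow genes, with 3041 and 1099 CPM over 8 granulocyte precursor genes against 24.3 and 22.5 CPM in mice 1 and 4. The same sum was 1400 and 2110 CPM in Laminectomy mice 2 and 3 against 272 and 322 CPM in mice 1 and 4, and it ran from 5.39 CPM in SHAM mouse 1 to 626 CPM in SHAM mouse 4. SHAM mouse 1 had the highest level of 9 of the 10 members within its group, and No operation mouse 1 the highest of 8. In bulk tissue, fewer cells of a type and less RNA per cell cannot be told apart.

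Cxcl1, Cxcl2, Cxcl3 and Cxcl5 were below 9 CPM in all untouched mice and had higher means after both operations. No operation mice 1 to 4 carried 2.96, 2.14, 0.799 and 0.911 CPM of Cxcl1. SHAM mice 1 to 4 carried 55.9, 38.7, 35.0 and 27.8 CPM, and Laminectomy mice 11.65, 24.0, 9.89 and 33.1 CPM. Every operated mouse was above every untouched mouse, and the ranges of both operated groups overlapped. The log2 fold change was 4.52 (SE 0.515) in SHAM and 3.52 (SE 0.501) in Laminectomy, both against No operation.

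No operation mice 1 to 4 carried 4.34, 0.567, 0.466 and 0 CPM of Cxcl2, where mouse 1 stood above the others. After SHAM surgery it was 144, 35.2, 53.5 and 62.35 CPM, and in Laminectomy mice 32.9, 15.2, 4.71 and 24.7 CPM. No Laminectomy mouse reached the lowest SHAM mouse, which made Cxcl2 the only member whose SHAM and Laminectomy values did not overlap. Its log2 fold change against No operation was 5.78 (SE 0.966) in SHAM and 3.85 (SE 0.919) in Laminectomy.

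Cxcl3 was at 4.07 CPM in No operation mouse 1, at 0 in mice 2 and 3 and at 0.0701 CPM (1 read) in mouse 4. A count of 0 allows up to 0.189 CPM in mouse 2 and 0.200 CPM in mouse 3, counting 3 reads as the limit, and up to 0.210 CPM for Cxcl2 and Cxcl5 in mouse 4. SHAM mice had 198, 38.0, 19.2 and 42.8 CPM, Laminectomy mice 38.1, 3.60, 3.63 and 10.7 CPM. Mouse 1 was the highest in all 3 groups, and Laminectomy mice 2 and 3 lay below No operation mouse 1. The log2 fold change was 6.18 (SE 1.39) in SHAM and 3.77 (SE 1.32) in Laminectomy against No operation. The call of Cxcl3 in Laminectomy was lost without No operation mouse 2 (log2 fold change 3.34), 3 (3.35) or 4 (3.40) or without Laminectomy mouse 1 (2.55), and also when Laminectomy and No operation mice were fitted alone (3.78).

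Cxcl5, a neutrophil attractant made by epithelial and stromal cells, had the largest log2 fold changes of the 10 in the fit of all 12 mice. Its values in untouched mice were 8.62, 0.252, 0.133 and 0 CPM. In the SHAM group it was 458, 207, 118.5 and 196 CPM, and in Laminectomy mice 121, 45.45, 41.0 and 147 CPM. All operated mice lay above all untouched mice. The log2 fold change was 6.77 (SE 1.21) in SHAM and 5.31 (SE 1.14) in Laminectomy.

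The size of these folds depended on No operation mouse 1. Without No operation mouse 1, the log2 fold changes in SHAM were 7.68 for Cxcl2, 11.32 for Cxcl3 and 10.78 for Cxcl5, and in Laminectomy 5.75, 8.91 and 9.31 in the same order. No operation mice 2 to 4 had 9, 7 and 0 reads of Cxcl2, 0, 0 and 1 of Cxcl3 and 4, 2 and 0 of Cxcl5. The size of these folds rests on those few reads and is no estimate of the rise. Without SHAM mouse 1, the log2 fold change of Cxcl3 in SHAM was 5.02. The direction and the call of these 3 genes held in each of those fits.

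**Figure D1:**
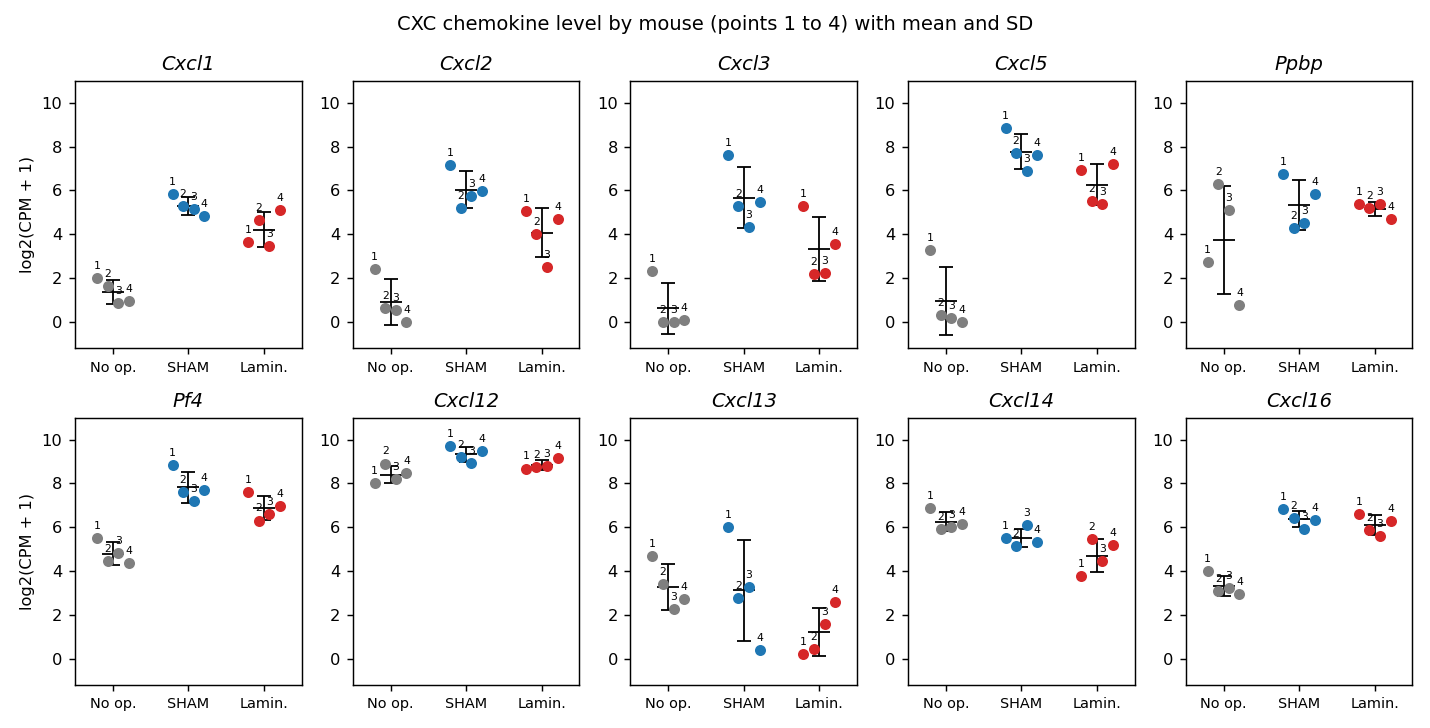
Level of each CXC chemokine in the 12 mice, as log2(CPM + 1), with 1 panel per gene, points numbered by mouse, and the mean and SD of each group of 4 as black bars. Cxcl1, Cxcl2 and Cxcl5 show all operated mice above all untouched mice, Ppbp spreads over the whole range of No operation mice, and SHAM mouse 1 is the top point of 9 panels within its group.

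Ppbp, pro-platelet basic protein, which platelets and neutrophils release and proteases cut into an active neutrophil attractant, did not follow its neighbours. Untouched mice carried 5.65, 77.2, 34.0 and 0.701 CPM, which is a 110-fold range among untouched mice. After SHAM surgery it was 105.5, 18.8, 21.6 and 55.7 CPM, and in Laminectomy mice 41.0, 35.5, 40.15 and 24.8 CPM. The 3 groups overlapped, and Laminectomy mice were the most alike, with a mean of 35.4 CPM and an SD of 7.46 (n = 4). The log2 fold changes were 0.78 (SE 0.932) in SHAM and 0.26 (SE 0.93) in Laminectomy, neither of them called.

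Ppbp ran with marrow and neutrophil genes across the untouched mice. No operation mice fell in the same order (2, 3, 1, 4) for Ppbp, for the sum of 10 neutrophil genes (1805, 726, 71.9 and 15.9 CPM in that order), for that of 8 granulocyte precursor genes and for that of 9 megakaryocyte and platelet genes (112, 60.8, 23.4 and 11.99 CPM). In SHAM mice the order of Ppbp (1, 4, 3, 2) was that of the neutrophil sum alone of these 3, at 1358, 1225, 575 and 463 CPM, and SHAM mouse 1 had the lowest megakaryocyte and platelet sum of its group (11.8 CPM, against up to 28.0). In Laminectomy mice the order of Ppbp matched none of the 3 lists and was that of the macrophage sum. The part of these cells in the level of Ppbp was not tested. With No operation mice 2 and 3 left out for their marrow genes, a choice made after their values were seen, the log2 fold changes of Ppbp from the 2 remaining mice were 3.99 in SHAM and 3.48 in Laminectomy. These mice also had the most Ppbp of the untouched mice, so that leaving them out could only raise the fold, and nothing is read from these values.

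Pf4, platelet factor 4, a heparin-binding protein that macrophages also make, was high after both operations. Its values in untouched mice were 44.8, 20.8, 27.4 and 19.4 CPM. SHAM mice 1 to 4 carried 458, 195, 144 and 204 CPM, and Laminectomy mice 193, 78.1, 97.6 and 126 CPM. Every operated mouse was above every untouched mouse, and mouse 1 was the highest of each group. The log2 fold change was 3.15 (SE 0.434) in SHAM and 2.13 (SE 0.417) in Laminectomy.

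Neither the platelet nor the macrophage marker sum followed the order of Pf4 over all mice of any group. Of 9 megakaryocyte and platelet markers, none was called higher and 1, Gp1ba, was called lower in each operated group, and their sum ran from 11.99 to 112 CPM in No operation, from 11.8 to 28.0 CPM in SHAM and from 28.6 to 52.9 CPM in Laminectomy mice. The 2 highest untouched values (112 and 60.8 CPM) were those of mice 2 and 3, which carried marrow genes, and every Laminectomy mouse lay above mice 1 and 4 (23.4 and 11.99 CPM). Of 8 macrophage markers, 6 were called higher and 1, Lyve1, lower in SHAM, and 4 higher and Lyve1 lower in Laminectomy. Over all genes, 25.7% were called higher and 25.1% lower in SHAM, and 24.2% and 24.4% in Laminectomy. The macrophage sum ran from 563.8 to 1292 CPM in No operation, from 2134 to 4319 CPM in SHAM and from 1349 to 1716 CPM in Laminectomy mice, and mouse 1 was the highest of each group, as for Pf4, while SHAM mouse 4 had the lowest macrophage sum of its group and the second highest Pf4. None of these markers was at 0 throughout a group. The part of macrophages or platelets in the level of Pf4 was not tested.

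**Figure D2:**
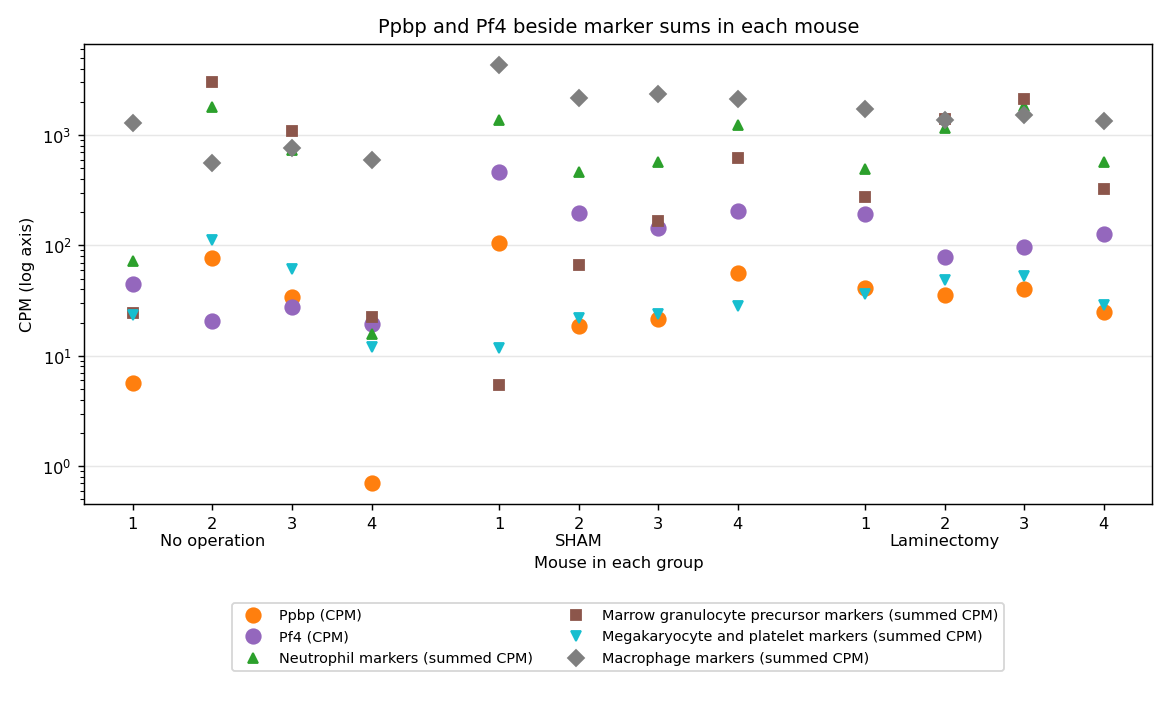
Ppbp and Pf4 (CPM) and the summed CPM of 4 marker lists in each mouse, on a log axis. In No operation mice Ppbp falls from 77.2 CPM in mouse 2 to 0.701 CPM in mouse 4 with the neutrophil and marrow sums, while Pf4 stays between 19.4 and 44.8 CPM there and is highest in mouse 1 of every group together with the macrophage sum.

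Cxcl12, the stromal ligand, was well expressed in all 12 mice. Untouched mice carried 259.5, 479.5, 292 and 349.9 CPM. In the SHAM group it was 829, 594, 482 and 724 CPM, and in Laminectomy mice 409, 425, 441 and 567 CPM. All SHAM mice lay above all No operation mice, by 482 against 479.5 CPM at the nearest, and the Laminectomy range overlapped both. Fitted over all genes, the log2 fold change was 0.93 (SE 0.22) in SHAM, which was called, and 0.42 (SE 0.218) in Laminectomy, which was not. Without No operation mouse 2, the latter was 0.62 and was called, and a log2 threshold of 1 would lose the call in SHAM.

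Cxcl13 was uneven within every group. Its values in untouched mice were 24.5, 9.70, 3.86 and 5.54 CPM. SHAM mice 1 to 4 carried 64.35, 5.78, 8.74 and 0.32 CPM, and Laminectomy mice 0.159, 0.36, 2.02 and 4.90 CPM. SHAM mouse 1 alone stood above the untouched mice, and all groups overlapped. The log2 fold changes were 0.86 (SE 1.18) and -2.55 (SE 1.29), neither called, and the sign in SHAM turned to -1.13 without SHAM mouse 1. B cell markers, for the cells that Cxcl13 attracts, summed to between 0.896 and 53.0 CPM over 5 genes in No operation mice, to between 3.43 and 5.98 CPM in SHAM mice and to between 5.21 and 13.3 CPM in Laminectomy mice.

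Cxcl14 was the only member called lower in an operated group. Untouched mice carried 117, 59.6, 63.7 and 69.8 CPM. The 4 SHAM mice carried 44.2, 34.6, 67.2 and 38.7 CPM, and Laminectomy mice 12.55, 42.6, 20.8 and 34.9 CPM. Every Laminectomy mouse lay below every untouched mouse, while SHAM mouse 3 lay within the untouched range. This gave a log2 fold change of -1.48 (SE 0.367) in Laminectomy and -0.75 (SE 0.36) in SHAM, which was not called. It was called in SHAM without SHAM mouse 3 (-0.98), without Laminectomy mouse 1 (-0.75) and when SHAM and No operation mice were fitted alone (-0.74). Krt5, a keratin of the basal epidermis, was at 31.9 CPM in SHAM mouse 3 and 27.4 CPM in SHAM mouse 1, the 2 SHAM mice with the most Cxcl14, against 2.03 and 0.374 CPM in mice 2 and 4. Krt14 had the same order in SHAM, at 37.1 and 12.7 CPM in mice 3 and 1 against 1.71 and 0.374 CPM in mice 2 and 4. The remaining markers of the list had another order. Krt10 was lowest in mouse 3 (2.49 CPM), Trp63 was lowest in mouse 1 (3.65 CPM), and Krt1 was at 9.33 CPM in mouse 1 but at 0.371 CPM in mouse 3. Krt5 was at or below 0.622 CPM in every No operation and Laminectomy mouse. The summed level of 5 keratinocyte markers ran from 20.98 to 41.1 CPM in No operation, from 10.5 to 104 CPM in SHAM and from 8.05 to 13.2 CPM in Laminectomy mice, and in the untouched mice it was mostly Trp63 (mean 23.6 CPM, against 7.60 CPM in Laminectomy). The part of epithelial tissue in the level of Cxcl14 was not tested.

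Cxcl16 was higher in both operated groups, with a narrow spread in each. Untouched mice carried 14.9, 7.49, 8.19 and 6.73 CPM. SHAM mice 1 to 4 carried 112, 85.3, 59.6 and 80.5 CPM, and Laminectomy mice 97.2, 57.3, 46.7 and 76.2 CPM. The operated groups overlapped each other and neither reached down to the untouched mice. In the fit it had a log2 fold change of 3.18 (SE 0.317) in SHAM and 2.89 (SE 0.313) in Laminectomy.

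Counted over the members, 7 of 10 were called higher in SHAM than in No operation and 0 lower, where a call means an adjusted p under 0.05 (edgeR's quasi-likelihood test over all genes, Benjamini-Hochberg adjustment) and an absolute log2 fold change above 0.5. Over all 14765 genes tested, 50.8% were called, 25.7% higher and 25.1% lower. In Laminectomy 6 were called higher and 1 lower, where 48.6% of all genes were called, 24.2% higher and 24.4% lower. The values of 7 members in SHAM and 6 in Laminectomy did not overlap those of No operation, against 54.5% and 56% of all genes. The median log2 fold change over the 10 was 3.16 in SHAM and 2.51 in Laminectomy, and over all genes 0 and 0.01. The genes were selected on these same contrasts, so that nothing is read from these shares. With SHAM mouse 1 and No operation mouse 1 both left out, an alternative added after the values were seen, the counts were again 7 in SHAM and 7 in Laminectomy. With only the 2 compared groups in the fit they were 8, with Cxcl14 added as lower, and 6, with Cxcl3 lost.

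All 10 members had a lower mean in Laminectomy than in SHAM, and none was called. The log2 fold changes of Laminectomy against SHAM ran from -0.28 (SE 0.286) for Cxcl16 to -3.41 (SE 1.32) for Cxcl13, with -1 (SE 0.427) for Cxcl1, -1.93 (SE 0.768) for Cxcl2, -2.41 (SE 1.10) for Cxcl3 and -1.47 (SE 0.926) for Cxcl5. Only Cxcl2 did not overlap, against 10.1% of all genes. Of all genes tested, 0 were called (0%) by edgeR, 2359 had an unadjusted p below 0.05, and the smallest adjusted p was 0.0698. DESeq2 called 696 genes in this comparison (4.35%), none of them a member. The sign of Ppbp turned to 0.15 without SHAM mouse 1, and the log2 fold change of Cxcl13 was -1.41 and that of Cxcl3 -1.24 without it.

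**Figure D3:**
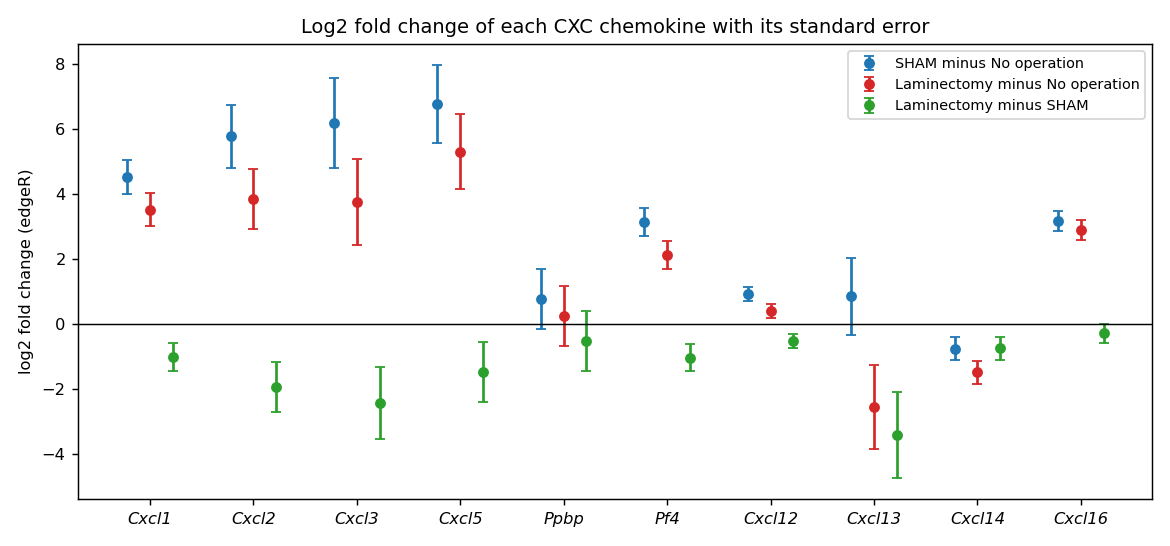
Log2 fold change of each CXC chemokine in the 3 comparisons (points) with its standard error (bars), from the fit over all genes. Cxcl5 has the highest values against No operation (6.77 in SHAM and 5.31 in Laminectomy), Cxcl14 lies below 0 in all 3 comparisons, and every Laminectomy minus SHAM point lies below 0.

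Levels were compared between genes per kb of exon. In untouched tissue Cxcl14 (mean 42.5 ± 14.6 CPM per kb, SD, n = 4), Cxcl12 (42.2 ± 11.9) and Pf4 (39.0 ± 16.2) had the highest means and overlapped each other. Ppbp (mean 27.1, from 0.647 to 71.3 CPM per kb) overlapped all 3 and was the highest member in No operation mouse 2. By their means, Cxcl1, Cxcl2, Cxcl3 and Cxcl5 were the last 4 of the 10. In every operated mouse Pf4 was the highest member per kb, with a mean of 347 ± 196 CPM per kb in SHAM and 171 ± 69.5 in Laminectomy. Next came Cxcl5 (131 ± 79.0 CPM per kb) and Cxcl12 (80.4 ± 18.5) in SHAM, and Cxcl12 (56.3 ± 8.82) and Cxcl5 (47.6 ± 28.7) in Laminectomy, and these neighbours overlapped. Cxcl13 had the lowest mean in both operated groups but not the lowest level in each mouse, since at 56.0 CPM per kb in SHAM mouse 1 it was above Cxcl1, Cxcl14 and Cxcl16. Transcripts that keep introns lengthen Cxcl1, Cxcl2 and Cxcl3 in this measure, Cxcl2 the least. Per kb of the longest coding transcript, a length chosen after the annotation was seen, Pf4 stayed highest in the means of both operated groups, Cxcl3 moved from rank 8 to rank 4 in SHAM, and Cxcl12 led in No operation.

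The summed level of the 10 per kb was 199, 204, 147 and 116 CPM per kb in No operation mice 1 to 4. It was 1350, 573, 456 and 634 CPM per kb in SHAM mice and 492, 281, 286 and 427 CPM per kb in Laminectomy mice. SHAM mouse 1 stood far above all others. The 5 ELR ligands made up between 29.3% and 36.9% of this sum in SHAM and between 23.7% and 31.5% in Laminectomy mice, which overlapped, and between 0.993% and 35.7% in No operation mice. In each No operation mouse the highest ELR ligand was Ppbp, in each SHAM mouse it was Cxcl5, and in Laminectomy mice it was Cxcl5 in mice 1 and 4 and Ppbp in mice 2 and 3.

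**Figure D4:**
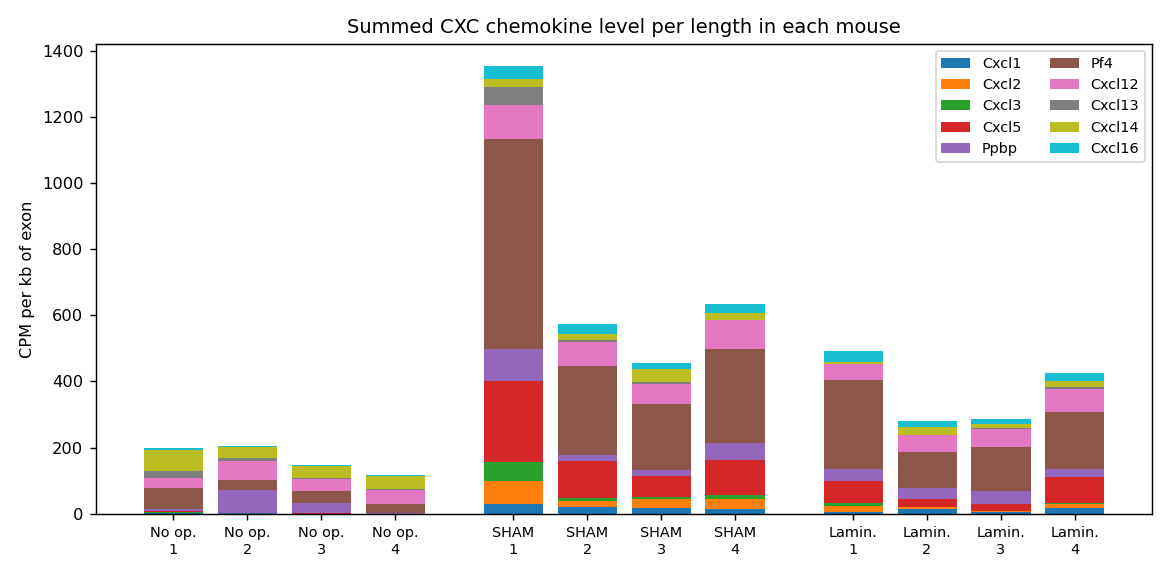
Level of the 10 CXC chemokines per kb of exon (CPM per kb), stacked by gene for each mouse. The stack of SHAM mouse 1 reaches 1350 CPM per kb, those of No operation mice lie between 116 and 204, and the Pf4 segment is the largest in all operated mice.

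The genes that read, cut or induce these ligands were taken from a list of 35 genes drawn up with earlier results known. Of these, 34 were in the table and 31 were tested. In SHAM, 24 were called higher and 0 lower, with a median log2 fold change of 1.67, and in Laminectomy 20 higher and 3 lower, with a median of 1.15, while the medians of all genes were 0 and 0.01. These shares stand beside 25.7% and 24.2% of all genes called higher. Between Laminectomy and SHAM 0 of 31 were called by edgeR. DESeq2 called 5 lower in Laminectomy, namely Cxcr3, Il1a, Ackr3, Dpp4 and Cebpb. Over all genes it called 4.35% in this comparison, 337 higher and 359 lower.

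Of 8 receptors, 4 rose in SHAM and 4 rose and 1 fell in Laminectomy, beside 25.7% of all genes called higher in SHAM and 24.2% higher and 24.4% lower in Laminectomy. Cxcr4, the receptor of Cxcl12, rose from 19.9 ± 14.7 CPM (SD, n = 4) in No operation to 62.8 ± 10.2 CPM in SHAM (log2 fold change 1.66, edgeR adjusted p = 0.00271) and to 70.6 ± 5.03 CPM in Laminectomy (1.83, edgeR adjusted p = 0.00164). Cxcr6, the receptor of Cxcl16, rose from 0.252 ± 0.118 to 1.60 ± 0.443 and 1.31 ± 0.415 CPM (log2 fold changes 2.63 and 2.34, edgeR adjusted p = 0.000154 and 0.000404). Cxcr3, which reads Cxcl9 and Cxcl10, rose at log2 fold changes of 2.15 and 1.15 (edgeR adjusted p = 0.000365 and 0.0172), and the call in Laminectomy was lost without No operation mouse 3.

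Ackr3, which takes up Cxcl12 without signalling to movement, fell in Laminectomy. Untouched mice carried 95.7, 55.2, 111 and 90.85 CPM of it, SHAM mice 172, 115, 82.2 and 81.25 CPM and Laminectomy mice 15.6, 36.4, 31.2 and 30.4 CPM. The Laminectomy mice lay below all the others. This gave a log2 fold change of -1.64 against No operation (edgeR adjusted p = 0.00104) and -1.99 against SHAM, where the edgeR adjusted p of 0.0698 missed the threshold, while in SHAM against No operation it was 0.35 (edgeR adjusted p = 0.339).

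The receptors of the ELR ligands were named here after their values were seen. Cxcr1 was called higher in SHAM and in Laminectomy from 5 reads over the 4 No operation mice (log2 fold changes 4.15 and 2.88, edgeR adjusted p = 0.000306 and 0.00423). In Laminectomy mouse 2 it was at 0.206 CPM (4 reads), below No operation mouse 1 at 0.207 CPM (3 reads), and its call in Laminectomy was lost when those 2 groups were fitted alone. Cxcr2, also 1 of the 10 neutrophil markers, measured 2.83, 36.0, 11.1 and 0.421 CPM in untouched mice, with 89.2, 22.95, 41.0 and 56.9 CPM after SHAM surgery and 20.75, 31.5, 39.7 and 23.2 CPM after laminectomy. The No operation mice were in the order of Ppbp (2, 3, 1, 4). Its log2 fold changes of 2.05 and 1.19 were not called (edgeR adjusted p = 0.0549 and 0.242), but both were called without No operation mouse 2, and the former also by DESeq2 and without SHAM mouse 2. Of the 10 neutrophil markers, 4 rose in SHAM and 3 in Laminectomy, beside 25.7% and 24.2% of all genes, and their sum overlapped in all 3 groups, at 15.9 to 1805, 463 to 1358 and 496 to 1837 CPM.

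Among other CXC ligands, Cxcl10, an interferon-induced attractant of T cells, rose from 0.849 ± 0.198 CPM to 19.4 ± 9.02 CPM in SHAM and 22.4 ± 18.9 CPM in Laminectomy (log2 fold changes 4.50 and 4.70, edgeR adjusted p = 0.000150 and 0.000141). SHAM mouse 1, the highest for most members, was the lowest of its group for Cxcl10, at 5.96 CPM against 22.8 to 24.5 CPM. Cxcl9 rose at log2 fold changes of 1.37 and 1.62 (edgeR adjusted p = 0.0310 and 0.0151). In SHAM mouse 1 it was at 1.855 CPM, within the untouched range of 1.79 to 4.97 CPM, and its call in SHAM was lost when those 2 groups were fitted alone and without No operation mouse 1, 3 or 4 or SHAM mouse 2, 3 or 4. Cxcl15 and Cxcl17 did not pass the filter on low counts.

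All 4 proteins on the list that cut these ligands were called in Laminectomy, and 3 of them in SHAM, beside 48.6% and 50.8% of all genes. Mmp2, which trims Cxcl12 and other chemokines, rose from 337 ± 139 to 1069 ± 176 and 881 ± 91.5 CPM (log2 fold changes 1.67 and 1.39, edgeR adjusted p = 0.000174 and 0.000650). Adam10 and Adam17, which release Cxcl16 from the membrane, rose at log2 fold changes of 0.82 and 1.35 in SHAM (edgeR adjusted p = 0.000260 and 6.89e-05) and 0.78 and 1.05 in Laminectomy (edgeR adjusted p = 0.000416 and 0.000427). Dpp4, which inactivates Cxcl12, fell in Laminectomy from 69.6 ± 14.2 to 12.1 ± 8.77 CPM (log2 fold change -2.52, edgeR adjusted p = 0.000728). In SHAM it was at 45.9 ± 20.7 CPM (log2 fold change -0.60, edgeR adjusted p = 0.249), and Laminectomy against SHAM gave an edgeR adjusted p of 0.112.

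Of 9 inducing cytokines and receptors tested, 9 rose in SHAM and 8 in Laminectomy, beside 25.7% and 24.2% of all genes called higher. Il1b, a cytokine that induces ELR ligands in stromal cells, measured 7.65, 9.19, 2.40 and 0.14 CPM in untouched mice, with 260, 80.4, 152 and 211 CPM after SHAM surgery and 72.9, 79.0, 25.2 and 88.6 CPM after laminectomy. Every operated mouse was above every untouched mouse, and the log2 fold changes were 5.17 and 3.77 (edgeR adjusted p = 0.000214 and 0.00137). Its receptor Il1r1 rose at 2.40 and 1.56 (edgeR adjusted p = 3.46e-05 and 0.000562), the TNF receptor Tnfrsf1a at 1.24 and 0.78 (edgeR adjusted p = 2.93e-05 and 0.000692) and the IL-17 receptor Il17ra at 1.77 and 1.11 (edgeR adjusted p = 0.000471 and 0.00818). Il6, named after its values were seen, had 9, 3, 1 and 0 reads in the untouched mice and fitted log2 fold changes of 5.69 and 5.41 (edgeR adjusted p = 0.000143 and 0.000230), whose size rests on those few reads. Il1a, also named afterwards, was called in SHAM (3.47, edgeR adjusted p = 0.00214) and not in Laminectomy (1.13, edgeR adjusted p = 0.212), and the difference between the operated groups did not pass (edgeR adjusted p = 0.158). Il17a did not pass the filter on low counts.

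Of 8 NF-kB and C/EBP genes, 6 rose in SHAM, and 3 rose and 1 fell in Laminectomy, beside 25.7% of all genes called higher in SHAM and 48.6% called in either direction in Laminectomy. Zfp36, which hastens decay of cytokine messages, rose at 1.61 and 1.00 (edgeR adjusted p = 0.000768 and 0.0127). Nfkb1 rose in SHAM (0.69, edgeR adjusted p = 0.00133) and lay at the fold threshold in Laminectomy (0.50, edgeR adjusted p = 0.00975), where the call changed with the fit. Cebpb rose in SHAM (0.63, edgeR adjusted p = 0.0260) and was at -0.35 in Laminectomy (edgeR adjusted p = 0.189). The SHAM and No operation values overlapped, and the call was lost without No operation mouse 2 or 3 or SHAM mouse 1. Cebpd fell in Laminectomy (-1.12, edgeR adjusted p = 0.00452) and was at -0.28 in SHAM (edgeR adjusted p = 0.384).

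**Figure D5:**
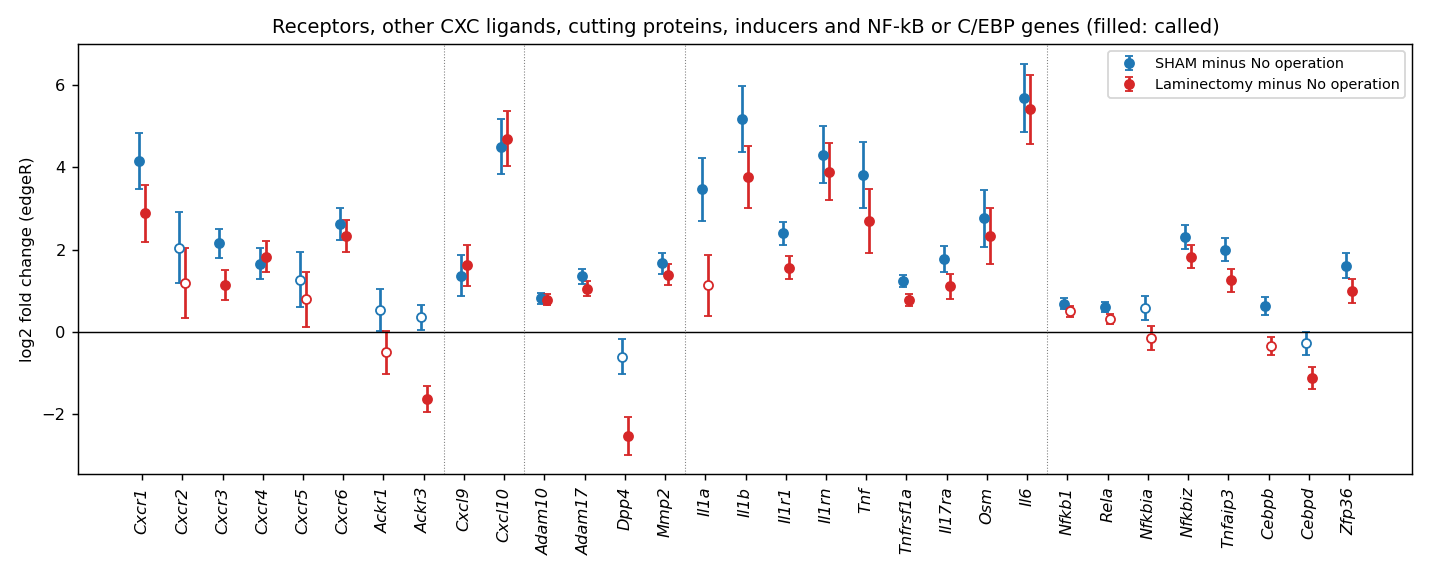
Log2 fold change with standard error of the 31 tested receptors, other CXC ligands, cutting proteins, inducers and NF-kB or C/EBP genes, in SHAM and in Laminectomy against the same No operation mice, with filled points for called genes. Il6, with few reads in untouched mice, has the highest fitted values (5.69 and 5.41), and Ackr3, Dpp4 and Cebpd are the 3 filled points below 0, all in Laminectomy.

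For each member, the 2 genes with the most similar profile over the 12 mice were taken from 12034 tested genes with a mean of at least 5 CPM, by the root mean square difference of centred log2 CPM. The 12 mice share the same 3 groups, so that any gene that parts the groups alike comes close. Cxcl2 was nearest to Acod1, which makes itaconate in activated macrophages (0.619 log2 units), and Il1b (0.807). Cxcl3 was nearest to Arg1 (0.692) and Acod1 (1.112), and Cxcl5 to the acute phase gene Saa3 (1.113) and Arg1 (1.162).

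Pf4 was nearest to Pla2g7 and Il4ra (0.221 each), and Cxcl1 to Draxin (0.479) and Cyp7b1 (0.504). Cxcl12, whose own SD over the mice was 0.50 log2 units, was nearest to H2-Aa (0.179) and Sfxn5 (0.195). Cxcl13 was nearest to Cd209g (1.038) and Cd209f (1.045), and Cxcl14 to Masp1 (0.285) and Glul (0.346). For Cxcl16 the nearest were Zmynd15 (0.218), the gene that shares its exons on the other strand, and Il2rg (0.231).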

How the data were processed

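Stranded polyA RNA libraries from 12 mice were sequenced by the authors, who aligned reads with STAR 2.6.1b to GRCm38, counted them per gene with featureCounts 2.0.1 at default settings and tested them with DESeq2 1.30.1, per the methods and the submitters' processing notes. The deposited table holds estimated counts that are not normalized, since 10.2% of all values are fractions, which affects 15.4% of genes. No step that makes fractions is described, so that the stated counting does not account for these values. They were rounded here, by at most 0.5, whereas whole counts had been assumed. Whether strand was used for them is not known.

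Groups and mouse numbers came from the labels. The study used 3 of the 4 mice of each group, which were not named, and all 4 were used here. The 18996 genes were filtered with filterByExpr (14765 kept), scaled with TMM and fitted together with edgeR 4.0.16 in R 4.3.3 (glmQLFit, glmQLFTest). Genes were called at an adjusted p under 0.05 where the log2 fold change also exceeded 0.5 in either direction. CPM are counts divided by the TMM-scaled total. P-values set a group difference against the spread between these mice, estimated over the 3 groups with help from all genes. Floors (3 reads) cover counting error only. In simulated data for SHAM against No operation (14651 genes), 58% of genes changed by 1 log2 unit were recovered. Of those changed by 2, 87% were recovered. For Laminectomy against SHAM (14658 genes) the shares were 52% and 80%. Only 100 genes were changed at each size, whereas 50.8% of all genes were called in the real SHAM against No operation data. The Benjamini-Hochberg adjustment is stricter where few genes change. The simulated shares therefore do not give the recovery in the real SHAM against No operation comparison.

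The members and lists were chosen with earlier results of these data known. Every member was named, and of the pathway list up to 4 called genes per sub-list by mean CPM. Il1a, Il6, Cxcr1, Cxcr2, the genes called by DESeq2 alone and single marker genes were named after their values were seen. Coordinates come from GENCODE and promoters from RefSeq (GRCm38.p6). Members are close paralogs, so that reads shared between them could be split, which was not tested. Alternatives were DESeq2 1.42.0, DESeq2 size factors, no filter, a log2 threshold of 1, a replicate block, the 2 groups alone and leaving out mice. The genes with a profile most like that of Ppbp are not reported here.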

Additional observations from a re-analysis of the deposited data

Results flagged for a closer look

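A gap between the highest mouse and the next that took up more of the group's range than Dixon's critical value for 4 samples was found in 5 of the 30 sets of 4 values, where chance flags about 1 in 20. All 5 were mouse 1 of its group, from 2 mice and genes measured in the same libraries, so that the sets are not independent and nothing is read from their number. In No operation mouse 1, Cxcl2 was at 4.342 CPM (next 0.5668), Cxcl3 at 4.066 CPM (next 0.0701) and Cxcl5 at 8.615 CPM (next 0.2519). In SHAM mouse 1, Cxcl3 was at 197.9 CPM (next 42.76) and Cxcl13 at 64.35 CPM (next 8.738). The macrophage marker sum was also the highest of its group in both mice, at 1292 and 4319 CPM, and the skeletal muscle sum the lowest, at 71870 and 1830 CPM. In SHAM mouse 1 the keratinocyte and fibroblast sums were the highest of its group as well, at 104 and 76410 CPM, as was the neutrophil sum, at 1358 CPM. Laminectomy mouse 1, with no such gap, also had the highest macrophage sum and the lowest muscle sum of its group, at 1716 and 2526 CPM. The part of these cells in the gaps was not tested.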

How the results depend on the processing

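The replicate block left the counts of members called at 7, 7 and 0 and those of the pathway list at 24, 23 and 0. Over all genes it gave 7442, 7153 and 0 in SHAM against No operation, Laminectomy against No operation and Laminectomy against SHAM. The mouse numbers share no stated litter, batch or day, and the correlations of same-numbered deviations ran from -0.23 to 0.35, so that no pairing was used. An absolute log2 fold change above 1 left 4589 and 4323 genes in SHAM and in Laminectomy against No operation, and 6 and 7 members, Cxcl12 being lost in SHAM. Between Laminectomy and SHAM, where edgeR called 0, DESeq2 called 696 of all genes and 5 of the pathway list, and leaving out SHAM mouse 1 and No operation mouse 1 together gave 1 of all genes. The cause was not tested. Leaving out each mouse in turn gave 6966 to 7642 genes for SHAM and 6534 to 7416 for Laminectomy against No operation, 7 to 8 and 6 to 7 members, and 23 to 25 and 22 to 26 pathway genes, with 0 in each of these for Laminectomy against SHAM. Of 570 recomputed log2 fold changes of the members, 557 moved by less than 1 SD between mice, 13 moved by more, and no called value changed sign. With 4 mice a group, differences of the size seen between Laminectomy and SHAM for Cxcl3 or Cxcl13 were within about 3 standard errors. So was Cxcl3 in Laminectomy against No operation (3.77, SE 1.32), which was called. This limit therefore does not part called from uncalled genes.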
